A study of Mus musculus with 30 samples.

Results

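The genes described here are the nuclear-encoded subunits of the mitochondrial respiratory chain and ATP synthase, measured by RNA sequencing in mouse brain. They were taken from a table of 34871 genes by name, as the numbered Nduf subunit families A, B, C, S and V, Sdha to Sdhd, all Uqcr genes, the lettered Cox4 to Cox8 genes and all Atp5 genes. Names matched 85 rows, and the 80 with a mean above 4 over all samples were kept (values are log2 RPKM, reads scaled to gene length and library size, after the authors' conditional quantile normalization). Complexes were assigned from gene names alone and were not checked against the known make-up of each complex. By name, 36 genes went to complex I, 4 to complex II, 8 to complex III, 15 to complex IV and 17 to complex V. Samples were the cerebral hemispheres of 30 mice aged 8 months, 10 of genotype Tmem106b +/+ (WT), 10 Tmem106b +/- (HET) and 10 Tmem106b -/- (KO). Tmem106b encodes a membrane protein of lysosomes, and variants of the human gene are linked to risk of frontotemporal dementia (FTD). Each genotype held 5 females and 5 males, 6 brains of a cohort numbered 1 and 4 of a cohort numbered 2. The sources used here do not state the strain, the part of Tmem106b that was targeted or what the cohort number stands for. Each library is a separate mouse, and read depth is unknown because the normalized values carry no counts.

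Respiratory chain complexes I to IV pass electrons from NADH and succinate to oxygen and, except for complex II, pump protons across the inner mitochondrial membrane. Complex V, ATP synthase, uses that proton gradient to make ATP, on which neurons depend heavily. A small core of subunits carries the flavins, iron-sulfur clusters and nucleotide sites, while many short accessory subunits surround it, and a further set of subunits is encoded in the mitochondrial genome. The table held 0 rows of the mitochondrial chromosome, so only the nuclear-encoded subunits are described.

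Promoter windows are shown as a description of the subunit genes, and their part in the variation between brains was not tested. RefSeq promoter windows (GRCm38.p6, 250 bases before to 50 bases after the start) were matched for 67 of the 80 genes, taking the window nearest to the start in the deposited table, and for 57 genes both starts lay within 100 bases. Each motif below was searched on both strands, and the comparison is with all 32851 windows of the same length. The core GCGCATGCG of NRF1, a factor named for respiratory genes, was in 8 of 67 windows (11.9%) against 1.75% of all windows. The core CCGGAAG of ETS factors such as GABP was in 15 windows (22.4%) against 8.86%. The core AAGATGGCG of YY1 was in 7 windows (10.4%) against 1.4%, and the box GGGGCGGGG of SP1 was in 12 windows (17.9%) against 11.4%. Any of these motifs was found in 34 of the 67 windows, and the ETS and YY1 cores can share bases, since the first ends and the second begins with AAG. A match describes letters in the window only. The windows below belong to genes chosen after their values were seen, 3 that rose in cohort 2 and 1 that fell, and capitals mark the matches on either strand. Among genes not printed, the windows of Ndufa1 and Ndufa5, which rose in cohort 2, held none of the 4 motifs. That of Atp5b, which fell, held an SP1 box. Whether motifs go with the direction of the cohort difference was not tested.
Uqcr11, chr10:80406772-80407071, minus strand, an ETS core and then an NRF1 core: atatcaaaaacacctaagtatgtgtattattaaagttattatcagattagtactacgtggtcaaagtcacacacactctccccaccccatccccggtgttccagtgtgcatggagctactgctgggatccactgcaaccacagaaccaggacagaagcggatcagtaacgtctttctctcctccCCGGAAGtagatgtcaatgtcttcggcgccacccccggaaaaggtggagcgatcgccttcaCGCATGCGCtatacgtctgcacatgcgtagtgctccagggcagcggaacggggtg
Atp5e, chr2:174464052-174464351, minus strand, an SP1 box and then an ETS core: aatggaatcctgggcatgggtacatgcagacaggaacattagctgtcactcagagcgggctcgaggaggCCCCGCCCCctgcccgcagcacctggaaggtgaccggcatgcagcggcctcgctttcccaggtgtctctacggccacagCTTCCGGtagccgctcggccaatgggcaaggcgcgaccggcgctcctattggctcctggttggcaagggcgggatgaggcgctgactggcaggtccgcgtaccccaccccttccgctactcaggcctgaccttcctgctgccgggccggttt
Ndufc1, chr3:51408906-51409205, minus strand, a YY1 core: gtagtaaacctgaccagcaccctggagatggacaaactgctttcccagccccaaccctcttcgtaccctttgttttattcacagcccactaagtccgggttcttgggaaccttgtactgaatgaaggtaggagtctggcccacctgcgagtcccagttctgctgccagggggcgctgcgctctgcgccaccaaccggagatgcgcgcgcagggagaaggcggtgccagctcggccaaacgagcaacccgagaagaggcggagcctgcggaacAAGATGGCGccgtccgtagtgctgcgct
Sdha, chr13:74350191-74350490, minus strand, with no match to the 4 motifs: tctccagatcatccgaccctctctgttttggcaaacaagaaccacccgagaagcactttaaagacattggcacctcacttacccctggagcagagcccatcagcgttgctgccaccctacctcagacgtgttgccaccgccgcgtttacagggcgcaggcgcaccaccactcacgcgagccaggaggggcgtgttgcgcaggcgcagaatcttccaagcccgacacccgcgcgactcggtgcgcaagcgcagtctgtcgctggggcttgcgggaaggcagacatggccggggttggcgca

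The subunit genes stood among the most abundant genes of the brain libraries. Their median level was 9.59 against 5.32 for the 23695 genes tested, and 63 of 80 lay above the 90th percentile of those genes, 8.43. The highest level was that of Cox8a, a small subunit of complex IV, at 12.43 ± 0.05 in WT, 12.41 ± 0.04 in HET and 12.39 ± 0.05 in KO (SD, n = 10 each). Ndufa4 followed at 12.12 over all brains, then the ATP synthase subunits Atp5a1 (alpha) at 11.71 and Atp5b (beta) at 11.58. The complex IV subunit Cox6a1 lay between them at 11.70. By complex, the median level was 9.26 for complex I, 9.43 for complex II, 9.94 for complex III, 10.45 for complex IV and 9.59 for complex V. The lowest gene of complex I was Ndufb7 at 7.11, an accessory subunit. Levels of single genes differed little between brains, with an SD over 30 brains from 0.04 for Atp5b to 0.28 for Cox7a1. The listed spans of 28 subunit genes, introns included, overlapped that of another gene with a mean above 0. Where exons of opposite strands overlap, reads cannot be told apart without strand information, and overlap of exons was not counted. Atp5o, for example, is listed at chr16:91684398-91931687 on mm10, a span that takes in Donson, Cryzl1 and Itsn1.

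The subunit forms known from other tissues were the least abundant. Complex IV has paired forms, a broad one and one restricted to muscle (Cox6a2, Cox7a1), lung (Cox4i2) or testis (Cox6b2). The broad Cox4i1 exceeded Cox4i2 by 6.68 ± 0.22 on the log2 scale (SD, n = 30 brains), with a range from 6.09 to 7.10. For Cox6a1 over Cox6a2 the difference was 6.08 ± 0.21, for Cox6b1 over Cox6b2 6.25 ± 0.21, and for Cox7a2 over Cox7a1 5.55 ± 0.26. These 4 restricted forms, with Cox4i2 at 4.64 and Cox6b2 at 5.23 closest to the limit of 4, were the only kept genes below Ndufb7. Of the 5 rows at or below the limit, Cox8b, the muscle form of subunit 8, lay just under it at 3.98, followed by Cox7b2 at 1.39. The others, Atp5l-ps2, Atp5l2-ps and Atp5l-ps1, are named as pseudogenes and lay at 1.34, -0.39 and -0.60. Among the 3 genes for the membrane ring subunit c of ATP synthase, which code for the same mature protein, Atp5g3 at 10.66 exceeded Atp5g1 by 2.66 ± 0.08 and Atp5g2 by 3.26 ± 0.07. Summed levels of 4 skeletal and heart muscle markers lay between 5.95 and 6.31 in the 30 brains.

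**Figure D1:**
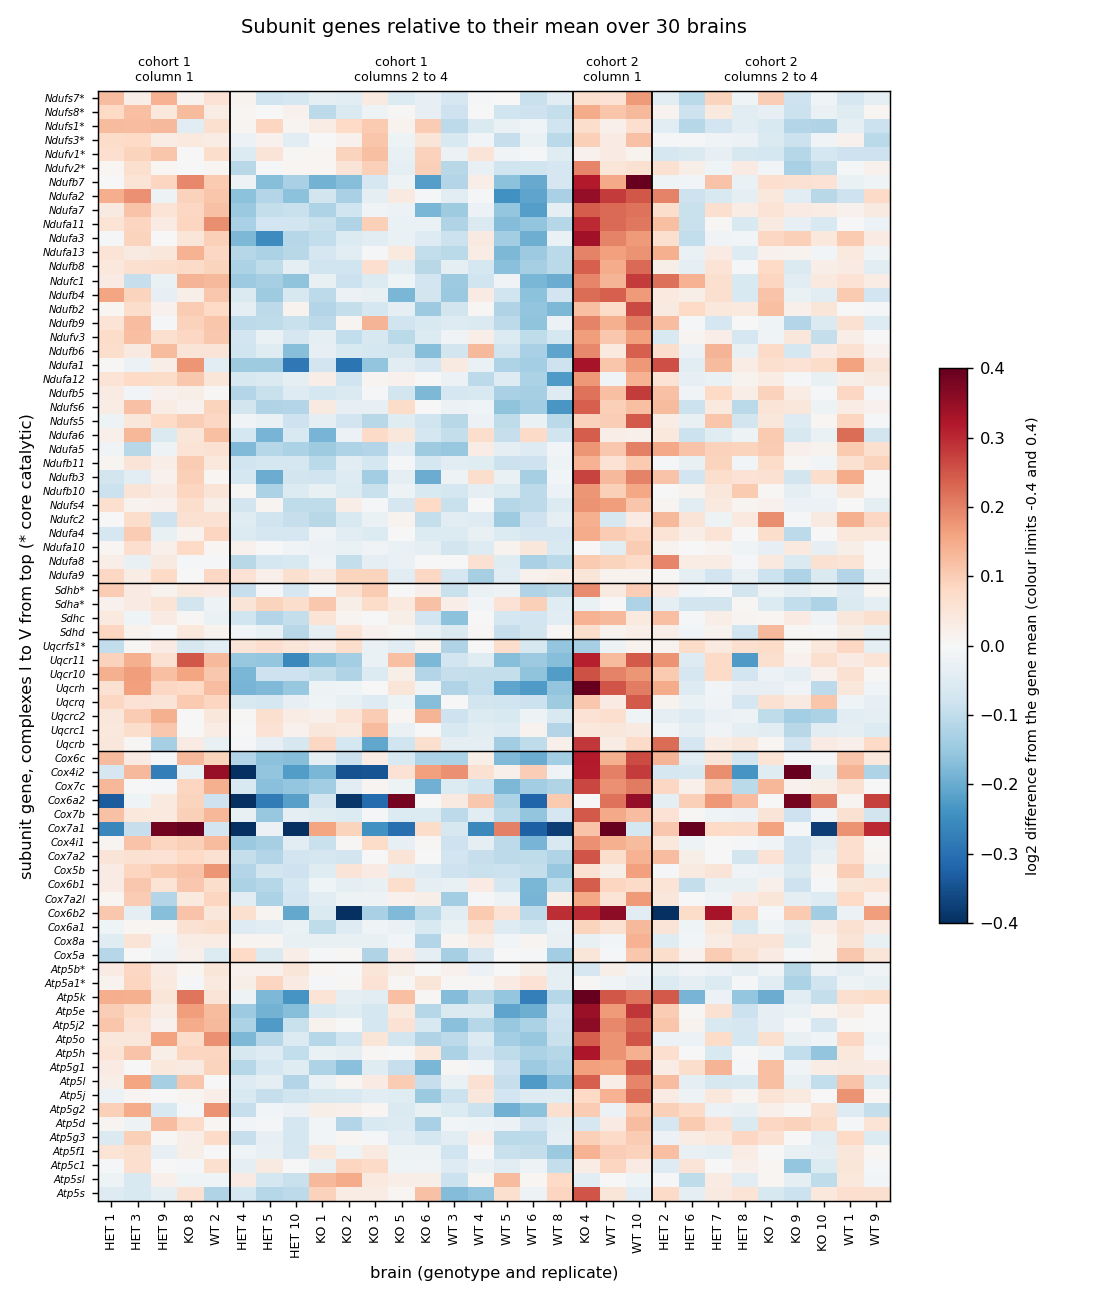
Level of 79 of the 80 subunit genes (lines, complexes I to V from top, core catalytic genes with an asterisk) in each of 30 brains (columns, ordered by cohort and by column of the well on the plate), as the log2 difference from the mean of the gene. Red lies above and blue below the mean; the colours saturate at -0.4 and 0.4, and the 8 brains of well column 1 are redder than the others in both cohorts.

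Tmem106b followed the genotype labels, with levels from 9.06 to 9.27 in WT, 8.54 to 8.62 in HET and 7.43 to 7.67 in KO. Differences below come from a linear model in limma over all 30 brains with genotype, sex, cohort and RNA integrity number (RIN) as terms. A gene is called changed at an adjusted p (Benjamini-Hochberg over 23695 genes) under 0.05. Of 5 oligodendrocyte markers, 4 fell in KO against WT (Cnp by 0.29 and Mog by 0.21 on the log2 scale), and their summed level ran from 13.07 to 13.33 in WT and from 12.88 to 13.16 in KO. Of 5 astrocyte markers, Gfap alone was called, higher by 0.22, while 2 of the 5 lay below 0 and their median was 0.0051. None of 5 neuronal, 4 microglial and 3 endothelial markers were called. In bulk tissue, fewer cells of a type and less RNA per cell cannot be told apart. The part of these shifts in the subunit results was not tested.

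The comparison of KO with WT brains asks what the loss of Tmem106b does to brain RNA. None of the 80 subunit genes was called in it, while 237 of all genes tested (1%) were called. Unadjusted p was under 0.05 for 2 subunit genes (2.5%) and for 2846 of all genes (12%). The median difference was 0.018 (log2), which is 1.25%, against 0.0061 for all genes, and 54 of 80 genes lay above 0. Leaving out single brains moved this median between 0.0066 (without WT 8), close to the value for all genes, and 0.025 (without WT 10). The 95% interval lay within ±0.1 for 50 of 80 genes and within ±0.2 for 77, so changes beyond those sizes lie outside the intervals of those genes. The ranges of KO and WT brains overlapped for every subunit gene, a check not made over all genes. No subunit gene was called under any of the alternative settings or when each brain was left out in turn.

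**Figure D2:**
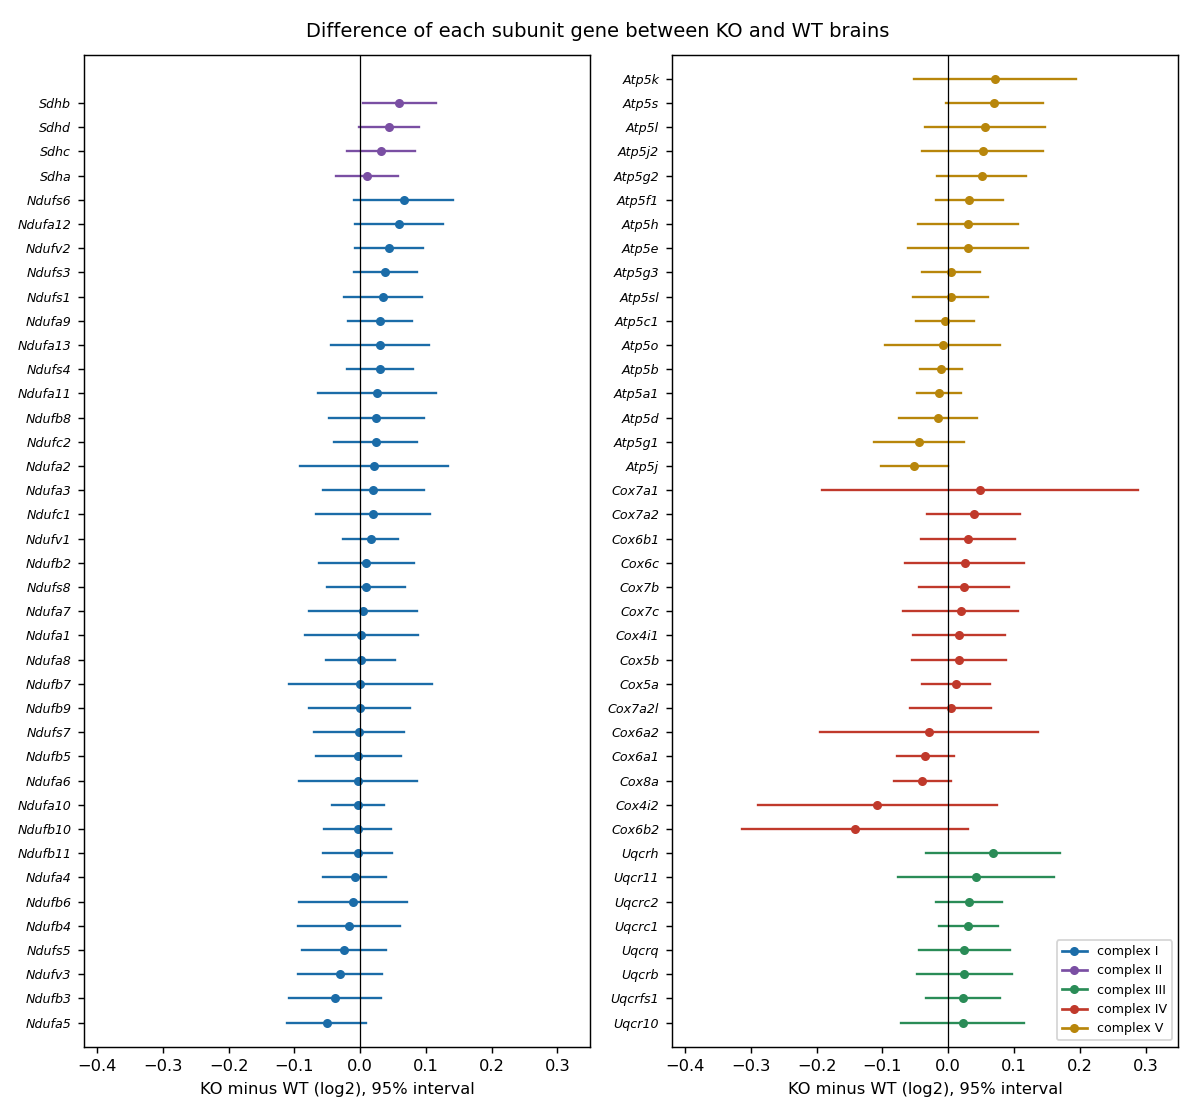
Difference between KO and WT brains for 79 of the 80 subunit genes (points, log2) with its 95% interval (bars), coloured by complex. All differences drawn lie between -0.14 and 0.07, and the widest intervals belong to the low-abundance complex IV forms Cox7a1, Cox4i2, Cox6b2 and Cox6a2.

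Complex I, the entry point for NADH, had a median difference of 0.0068, with extremes at the accessory subunits Ndufs6 (0.07 ± 0.04 SE, adjusted p = 0.499 in limma) and Ndufa5 (-0.05 ± 0.03, adjusted p = 0.526). All 4 genes of complex II, succinate dehydrogenase, lay above 0. Sdhb, its iron-sulfur subunit (chr4:140961203-140979193), ranged from 8.97 to 9.19 with a median of 9.07 in WT, from 9.00 to 9.20 with a median of 9.09 in HET and from 9.06 to 9.28 with a median of 9.10 in KO. The 3 ranges overlapped widely, although 9 of 10 KO brains lay above the WT mean. The difference between KO and WT was 0.06 ± 0.03 (log2 ± SE, 4.23%), with an unadjusted p of 0.0356 and an adjusted p of 0.364 in limma. Complex III, which passes electrons from ubiquinol to cytochrome c, also had all 8 genes above 0, the largest being the hinge subunit Uqcrh at 0.07 ± 0.05 (adjusted p = 0.640). Complex IV, cytochrome c oxidase, had the lowest value of all subunits, that of the testis form Cox6b2. Its level ran from 5.13 to 5.59 (median 5.28) in WT and from 4.68 to 5.53 (median 5.15) in KO. The difference was -0.14 ± 0.08 (adjusted p = 0.542), with 7 of 10 KO brains below the WT mean. In complex V the extremes were Atp5k, the subunit e, at 0.07 ± 0.06 (adjusted p = 0.702) and Atp5j, coupling factor 6, at -0.05 ± 0.03 (adjusted p = 0.409). Atp5j ran from 9.03 to 9.33 in WT (median 9.13) and from 8.96 to 9.19 in KO (median 9.09), and the ranges overlapped.

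The core catalytic genes, a label used here for a list chosen by the roles of the proteins, showed the same picture in KO brains. They include Ndufs1, Ndufs3, Ndufs7, Ndufs8, Ndufv1 and Ndufv2 of complex I, Sdha and Sdhb, the Rieske protein gene Uqcrfs1, Atp5a1 and Atp5b. None of the 12 was called in KO against WT, with a median of 0.019 and values between -0.01 and 0.06. For 11 of 12 the 95% interval lay within ±0.1. The flavoprotein gene Sdha differed by 0.01 ± 0.02, and Atp5b by -0.01 ± 0.02.

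HET brains also gave no call among the subunit genes against WT, where 1 gene of all tested (0.00422%), Tmem106b itself, was called. The median was 0.015, between 0.0028 (without HET 1) and 0.026 (without WT 10) when single brains were left out. Of the 80 genes, 62 lay above 0 and 4 had an unadjusted p under 0.05 (5%, against 6.32% of all genes). These 4 were Uqcrc2 and Uqcrc1, the core proteins of complex III, at 0.06 ± 0.03 and 0.06 ± 0.02, Ndufa9 at 0.05 ± 0.02 and Cox4i2 at -0.23 ± 0.09, with adjusted p between 0.762 and 0.768 in limma. Cox4i2 ran from 4.52 to 4.99 (median 4.76) in WT, from 4.17 to 4.83 (median 4.53) in HET and from 4.29 to 5.16 (median 4.61) in KO. The 3 ranges overlapped, and the KO brains were the most widely spread. KO against HET gave no subunit call either, and 0 subunit genes with an unadjusted p under 0.05, against 0.118% called and 8.66% of all genes. The slope per deleted Tmem106b copy was called for 0 of 80 genes (1.02% of all genes), with 2 unadjusted p under 0.05 and a median of 0.0089 per copy, between 0.0034 (without WT 8) and 0.013 (without WT 10) when single brains were left out.

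The difference between KO and WT was also compared between the sexes and between the cohorts. No subunit gene was called for the interaction with sex (0% of all genes), where 6 of 80 genes and 1682 of all genes had an unadjusted p under 0.05. The largest was that of Cox6a2, at -0.54 ± 0.13 in males relative to females (adjusted p = 0.412 in limma). No subunit gene was called for the interaction with cohort either (0.0338% of all genes). Unadjusted p was under 0.05 for 8 of 80 genes (10%) and for 2020 of all genes (8.53%). The median of the cohort interaction over the subunit genes was -0.060, with 65 of 80 genes and 12 of 12 core genes below 0. It lay between -0.076 (without KO 4) and -0.035 (without KO 10) when single brains were left out. Fitted within cohort 1 alone, the median difference between KO and WT was 0.039 with 64 genes above 0, and within cohort 2 alone it was -0.021 with 16 above 0, with 0 subunit genes called in each. The values ran from -0.42 ± 0.23 for Cox7a1 to 0.31 ± 0.18 for Cox4i2, and the lowest adjusted p was that of Uqcrc2, at -0.15 ± 0.04 (adjusted p = 0.244 in limma). Without the 8 brains of well column 1, described next, Uqcrc2 was the only subunit gene called for this interaction (adjusted p = 0.0453 in limma). In that fit 0.114% of all genes were called. Of the WT and KO brains of cohort 2, column 1 held WT 7, WT 10 and KO 4. Of those of cohort 1 it held WT 2 and KO 8. Genotype and column were thus not balanced within cohort 2, and the part of column in the interaction was not tested beyond the alternative settings.

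Between brains, the subunit genes moved together. The mean over the 80 genes ran from 9.22 to 9.49, a span of 0.27 (log2) or 1.20-fold. The genotypes had like means of 9.33 ± 0.08 in WT, 9.32 ± 0.05 in HET and 9.33 ± 0.07 in KO (SD, n = 10 each), and their ranges overlapped. After genotype, sex, cohort and RIN were taken out, the median Pearson correlation over the 3160 pairs of subunit genes was 0.45 over the 30 brains. A first principal component held 47.7% of the variance of the scaled residuals. The genes closest to the mean of the other subunits were Uqcr10 (r = 0.93), Cox6c (0.93), Atp5e (0.93), Ndufa13 (0.91) and Ndufa11 (0.91), none of them in the core list. The genes farthest from it were Uqcrfs1 (r = -0.30), Sdha (-0.28), Atp5sl (0.01) and Atp5s (0.01). These correlations describe libraries that share one normalization and, in part, plate position. With the column of the well added to the model the median correlation was 0.20 and the first component held 28.1%.

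**Figure D3:**
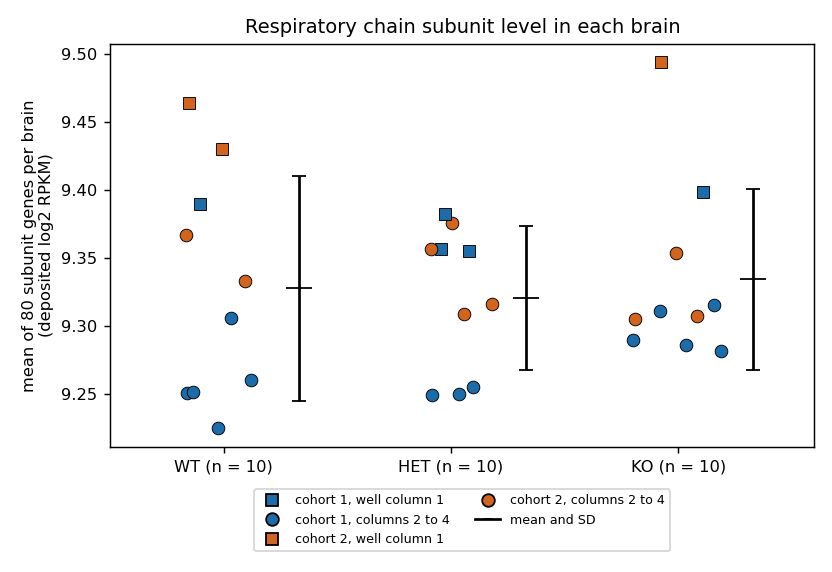
Mean level of the 80 subunit genes in each brain (points, deposited log2 RPKM) by genotype, with squares for well column 1, circles for columns 2 to 4 and colours for the cohort, and the mean and SD of each genotype beside them (n = 10 each). The genotypes overlap, whereas squares lie above circles of the same colour.

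Plate position went with the level of the subunit genes. The sample titles name a plate and a well, and wells of column 1 held 8 brains, 3 WT, 3 HET and 2 KO, 5 of cohort 1 and 3 of cohort 2. The mean over the subunit genes was 9.36 to 9.40 in the column 1 brains of cohort 1 against 9.22 to 9.32 in its other 13 brains, and 9.43 to 9.49 against 9.31 to 9.38 in cohort 2. Within each cohort, column 1 did not overlap the other columns. The titles do not say which step used the plate. RIN was 9.62 ± 0.28 in column 1 (SD, n = 8) and 9.22 ± 0.30 in the other columns (n = 22), and its part in the difference was not tested beyond its place in the model. Both the test over columns and the grouping into column 1 and the rest were chosen after the values were seen.

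In an F test over the 4 well columns in limma, 26 of 80 subunit genes (32.5%) were called, against 239 of all genes (1.01%). All 26 were higher in column 1. They were Ndufa2, Ndufa3, Ndufa7, Ndufa11, Ndufa12, Ndufa13, Ndufb2, Ndufb7, Ndufb8, Ndufb11, Ndufs8 and Ndufv3 of complex I, Uqcrh, Uqcrq, Uqcr10 and Uqcr11 of complex III, Cox4i1, Cox6c, Cox7a2, Cox7b and Cox7c of complex IV, and Atp5e, Atp5g1, Atp5h, Atp5j2 and Atp5o of complex V. Of the 80 genes, 76 were higher there, and the median difference was 0.12 (log2), against -0.0028 for all genes. The 26 included 25 of the 68 genes outside the core list, and Ndufs8 alone of its 12. Uqcr10, a small subunit of complex III (chr11:4701973-4704342), ran from 10.07 to 10.22 (median 10.12) in column 1 and from 9.74 to 10.06 (median 9.88) in the other columns. Its ranges did not overlap, which held for 2 of the 80 genes, Uqcr10 and Ndufv3, a count not made over all genes. The fitted difference between column 1 and the others was 0.24. The adjusted p of the F test, which does not test that difference alone, was 0.00116. Uqcr11, another small complex III subunit, whose promoter is printed above, ran from 9.94 to 10.19 (median 10.02) against 9.62 to 10.06 (median 9.82). Its fitted difference was 0.28 (adjusted p = 0.00509 in the F test). Atp5e, the epsilon subunit of ATP synthase, ran from 8.95 to 9.26 (median 9.06) against 8.71 to 9.02 (median 8.86). Its fitted difference was 0.23 (adjusted p = 0.0018 in the F test). For both genes the lowest column 1 brains lay inside the range of the other columns. In contrast, Atp5a1 and Atp5b differed by 0.00031 and 0.018 between column 1 and the rest. The count of subunit genes fell from 26 to 14 without WT 10 and to 16 without WT 2, and was 41 without RIN in the model. It was 15 within cohort 1 alone and 0 within cohort 2 alone, within females alone and within males alone.

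Subunit genes were called in both directions between the 2 cohorts. In cohort 2 against cohort 1, 43 of 80 subunit genes were higher and 5 lower, against 8.09% of all genes higher and 9.42% lower. The median difference was 0.087 (6.18%), against 0.0055 for all genes. All 43 that rose were among the 68 genes outside the core list, and all 5 that fell were among the 12 core genes. The 68 genes had a median of 0.097 with 64 above 0, and the core genes one of -0.021 with 6 above 0 and 7 not called. The difference between the core genes and the others was not tested. By complex, 23 of 36 genes rose in complex I, 1 of 4 in complex II, 4 of 8 in complex III, 8 of 15 in complex IV and 7 of 17 in complex V. Cohort 2 had 12 brains, cohort 1 had 18, and each cohort held equal numbers of the 3 genotypes.

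The genes assigned by name to complex I that rose were Ndufa1, Ndufa2, Ndufa3, Ndufa4, Ndufa5, Ndufa7, Ndufa8, Ndufa11, Ndufa13, Ndufb2, Ndufb3, Ndufb4, Ndufb5, Ndufb6, Ndufb7, Ndufb8, Ndufb10, Ndufb11, Ndufc1, Ndufc2, Ndufs4, Ndufs5 and Ndufs6. Sdhc, a membrane anchor of complex II, rose by 0.09, and Uqcrh, Uqcrb, Uqcr10 and Uqcr11 of complex III rose by 0.12 to 0.15. In complex IV the genes were Cox5a, Cox6a1, Cox6a2, Cox6c, Cox7a2, Cox7a2l, Cox7b and Cox7c. In complex V they were Atp5e, Atp5f1, Atp5g1, Atp5g3, Atp5j, Atp5j2 and Atp5o, with rises of 0.07 to 0.16. Among the genes that rose, the muscle form Cox6a2 had the largest difference. It ran from 5.21 to 6.01 (median 5.54) in cohort 1 and from 5.58 to 6.01 (median 5.77) in cohort 2, a difference of 0.24 ± 0.07 (adjusted p = 0.0153 in limma). Ndufa1, a membrane subunit of complex I, ran from 9.83 to 10.30 (median 10.05) and from 10.07 to 10.45 (median 10.21), a difference of 0.22 ± 0.04 (adjusted p = 0.000179). The lowest adjusted p was that of the accessory subunit Ndufa5, which ran from 9.30 to 9.53 (median 9.39) in cohort 1 and from 9.49 to 9.67 (median 9.58) in cohort 2. Its difference was 0.18 ± 0.03 (adjusted p = 3.91e-05). All 12 cohort 2 brains lay above the cohort 1 mean for these 3 genes, and for 12 of the 80 in all. For no subunit gene were the ranges of the cohorts apart, and neither count was made over all genes. Ndufc1, another membrane subunit whose promoter is printed above, ran from 8.27 to 8.61 (median 8.40) and from 8.41 to 8.75 (median 8.55), with a difference of 0.17 ± 0.04 (adjusted p = 0.00138).

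The genes that fell include those of subunits that bind flavin or nucleotides. Sdha ran from 10.23 to 10.42 (median 10.35) in cohort 1 and from 10.18 to 10.31 (median 10.25) in cohort 2, a difference of -0.10 ± 0.02 (adjusted p = 0.000968 in limma). All 12 cohort 2 brains lay below the cohort 1 mean, and the ranges overlapped. Atp5a1 ran from 11.67 to 11.79 (median 11.73) and from 11.58 to 11.71 (median 11.67), a difference of -0.07 ± 0.01 (adjusted p = 0.00147). Ndufv1, the NADH-binding subunit of complex I, differed by -0.07 ± 0.02 (adjusted p = 0.00539) and Atp5b by -0.05 ± 0.01 (adjusted p = 0.0138). In size the falls of these 4 genes were between 3.24% and 6.63%.

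Gene length was set beside the cohort difference. The median length in the table was 2276 bases for the core genes and 1234 for the other 68, against 2599 for all genes tested. Pearson's r between log length and the cohort difference was -0.40 over the 80 genes and -0.21 over the 68 outside the core list. Over all 23695 genes tested it was -0.032, and over the 3359 of them with a mean above 8 it was -0.29. These are correlations across genes measured in the same brains, and the part of length in the cohort difference was not tested. For 20 subunit genes the length in the table was over 2 times that of the principal annotated transcript.

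**Figure D4:**
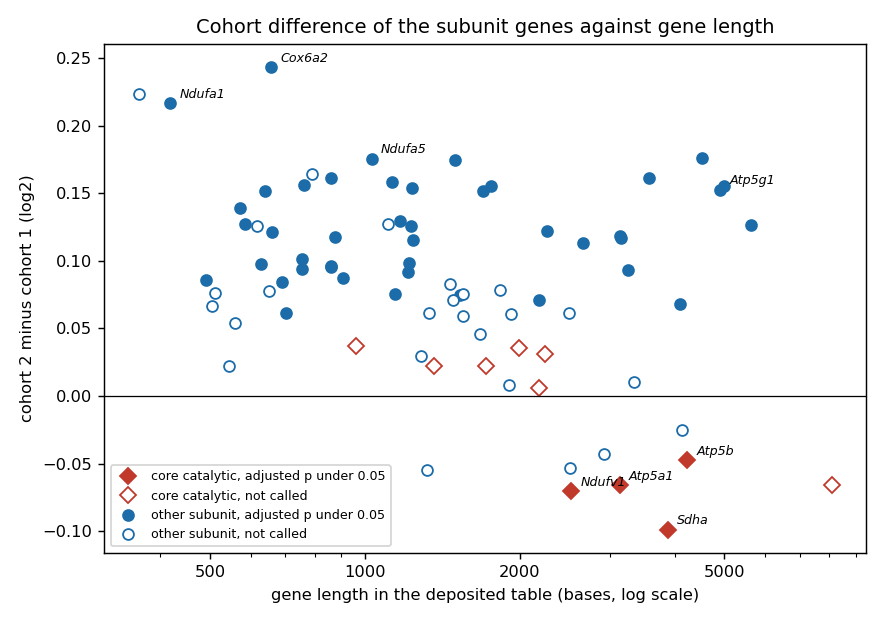
Difference between cohort 2 and cohort 1 (log2) for 79 of the 80 subunit genes against gene length in the table (bases, log scale), with diamonds for 11 core catalytic genes, circles for the 68 others and filled symbols for adjusted p under 0.05. The 43 filled circles lie above 0 and the 4 filled diamonds lie below it.

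Other measures also differed between the cohorts. Of 5 oligodendrocyte markers, 3 rose in cohort 2 (Mobp by 0.28, Mbp by 0.19, Mog by 0.15), and their summed level ran from 12.88 to 13.21 in cohort 1 and from 13.01 to 13.33 in cohort 2. Of 5 neuronal markers, Tubb3 and Syt1 fell by 0.07 and 0.06, with summed levels of 13.21 to 13.28 and 13.18 to 13.26. Of 5 astrocyte markers, the transporter gene Slc1a2 alone was called and fell by 0.11, while 2 of the 5 lay above 0 and their median was -0.021. Of 3 endothelial markers 2 rose (Pecam1 by 0.16, Flt1 by 0.13), and none of 4 microglial markers was called. Their part in the subunit result was not tested. With the well column added to the model, 42 subunit genes rose and 6 fell in cohort 2, and the share of all genes called in that fit is not given here. Without the 8 brains of column 1, 15 rose and 2 (Sdha and Atp5a1) fell, with 4.75% of all genes called. The count was 24 rises and no fall in males alone, for which the count of all genes is given in the last section. It was 0 in females alone, where 0.422% of all genes were called and 65 of 80 subunit genes still lay above 0. The 3 cohort 2 brains of column 1 (KO 4, WT 7 and WT 10) were all male. Female brains of column 1 (HET 1, HET 9 and KO 8) were all of cohort 1. Cohort and column were therefore not balanced within a sex, and their parts there were not tested.

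Sex and RNA integrity gave no subunit call in this model. Between males and females 0 of 80 genes were called (0.333% of all genes), with 63 higher in males and 15 with an unadjusted p under 0.05 (18.8%, against 12.5% of all genes). The lowest adjusted p in limma was 0.0946, for Ndufv2, a core subunit of complex I that was higher in males by 0.08. Without the filter on means, 6 subunit genes were called, all higher in males and among them Ndufv1, Ndufv2, Ndufs4, Atp5c1 and Atp5g3, and 26.1% of all genes were called. Libraries of the sexes also differed in their lower quartile of all genes, which ran from -1.20 to -0.29 in males and from -0.41 to -0.07 in females, and its part was not tested. For the slope per unit of RIN, 0 of 80 genes were called (0.0633% of all genes). Of the 80 slopes, 74 lay above 0 and 43 had an unadjusted p under 0.05 (53.8%, against 10.3% of all genes), with a median of 0.082 per unit. With the well column in the model the median slope was -0.0031, and without the brains of column 1 it was -0.0051.

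The genes that assemble and feed the chain were described from lists of known members. In KO against WT, no gene of these lists was called: 0 of 14 for complex I assembly, 0 of 8 for complexes II and III, 0 of 20 for complex IV, 0 of 4 for complex V, 0 of 11 electron carriers, 0 of 13 enzymes of the citric acid (TCA) cycle and 0 of 11 genes of mitochondrial biogenesis. HET against WT gave no call in them either. The highest value in KO was that of Sco1, a copper chaperone of complex IV, at 0.11 ± 0.04 (adjusted p = 0.242 in limma). The lowest was that of the coactivator gene Ppargc1b, at -0.13 ± 0.07 (adjusted p = 0.525).

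In cohort 2, genes of these lists were called in both directions, beside 8.09% of all genes higher and 9.42% lower. For complex IV assembly, 5 of 20 rose, the copper chaperone Cox17 by 0.17, Cox16 by 0.13, Coa3 by 0.12, Cox14 by 0.11 and Cox15 by 0.08. Pet117 fell by 0.15 and Lrpprc, whose protein binds mitochondrial mRNAs, by 0.08. For complexes II and III, 3 of 8 rose, Uqcc2 by 0.11, Sdhaf2 by 0.09 and Uqcc1 by 0.06, and Ttc19 fell by 0.05, while Sdhaf1 had the highest value, 0.12, without being called (adjusted p = 0.119 in limma). Among complex I factors 1 of 14 was called, a share near that of all genes. It was Ndufaf5, which rose by 0.08, while the highest value was that of Ndufab1 at 0.09 (adjusted p = 0.0662 in limma). Among complex V factors 1 of 4 rose, the ATPase inhibitor gene Atpif1 by 0.16. Cytochrome c (Cycs, by 0.11) and Coq7 (by 0.12), of the ubiquinone pathway, rose among 11 electron carriers. Of 13 TCA cycle genes, 5 fell, 1 rose and 7 were not called. Among those lower, citrate synthase (Cs) fell by 0.07, Idh3a by 0.07, Dld by 0.07 and Idh3g by 0.06, while Suclg2 rose by 0.13. Of 11 biogenesis genes, Nrf1 (by 0.13) and Tfam (by 0.06) rose and Polrmt (by 0.10) and Polg (by 0.06) fell. The TCA list had a median of -0.054 with 2 of 13 above 0, against 0.087 for the 80 subunit genes and 0.0055 for all genes tested, and its difference from the subunit genes was not tested.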

How the data were processed

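RNA of the cerebral hemispheres of 30 mice was sequenced by the authors. Alignment to mm10 used TopHat2 2.0.12 with Bowtie 1.1.0, per the submitters' processing notes, while the sources used here do not state the counting tool, annotation or strand setting. The deposited values are log2 RPKM after conditional quantile normalization, per the file headers. They are used to compare libraries: the library medians lay between 2.82 and 2.91 and the highest value was 14.17 in every one, so that normalization can hide shifts of all genes at once. Fold changes were taken as differences of these log2 values, with no pseudocount added. Precision was judged from the spread between mice.

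Genes with a mean above 0 (23695) were fitted with limma 3.58.1 in R 4.3.3 (genotype, sex, cohort and RIN as terms, eBayes with an intensity trend, two-sided), checked on simulated data. P values were adjusted by Benjamini-Hochberg over these genes and called under 0.05. Alternatives were other covariates, filters, scalings, single cohorts and sexes, the well column as a term, each mouse left out, and, added after the data were seen, the F test over well columns and leaving out column 1. The subunit genes and all lists were chosen with earlier results of these data known. Named are genes called in the fits over all mice, the extremes of each complex in KO against WT, the core catalytic genes, the tissue-restricted forms and the genes next to the limit of 4. From the pathway lists, genes called between cohorts are named, with extremes where they add to them. A subunit gene and a gene of the pathway lists are counted but not reported here by name.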

Additional observations from a re-analysis of the deposited data

Results flagged for a closer look

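Levels of single brains that stood apart from the other 9 of their genotype (Dixon's test at its 95% critical value, 0.466 for 10 brains) were found in 18 of 243 groups, 7.41%. Chance gives about 1 in 20 for independent groups. These groups share the same brains and their genes vary together, so the 2 shares cannot be compared. KO 4, a male of cohort 2 in well column 1 with a RIN of 10, was the highest KO brain in 10 of the 18 groups: Uqcrh at 10.58, Ndufs6 at 9.26, Ndufa3 at 9.66, Ndufa2 at 10.13, Atp5f1 at 9.47, Cox7a2l at 10.61, Cox7a2 at 11.23, Atp5h at 10.58, Ndufa11 at 8.21 and Atp5j2 at 9.95. It also had the highest mean over the 80 subunit genes, 9.49. HET 2 was the highest HET brain for Ndufa8 (10.03) and Uqcrb (10.15). The other high values were Cox8a in WT 10 (12.55), Ndufa10 in HET 3 (8.79) and Cox7a1 in KO 8 (6.07). Low values were Uqcrfs1 in HET 1 (10.12), Ndufv2 in HET 4 (8.94) and Cox5a in KO 3 (11.01).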

How the results depend on the processing

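No paired analysis was possible because the replicate numbers were given in the order of the samples. No subunit gene was called for KO against WT, HET against WT or KO against HET under any alternative run. The count of all genes called for KO against WT was 144 with genotype alone, 114 with the 2 groups alone, 482 in cohort 1, 4 in cohort 2, 13 in females, 15 in males and 115 without well column 1; leaving out each mouse gave 138 (without WT 4) to 388 (without KO 10). For the slope per copy, 1 subunit gene, Ndufv2, was called in cohort 1 alone, the cohort with 482 calls of all genes for KO against WT. The share of all genes called for that slope is not given here, so the call is not read as a result about Ndufv2. Subunit genes called between cohorts numbered 0 in females, 24 in males and 17 without column 1 (all genes 100, 1429 and 1125), and 33 (without KO 4) to 53 (without KO 10) leaving out each mouse (all genes 2904 to 4444). For well column, subunit genes called numbered 41 without RIN, 15 without the intensity trend, 15 in cohort 1 and 0 in cohort 2, females and males, against 523, 119, 72, 1, 0 and 0 of all genes; leaving out each mouse gave 14 to 32 (all genes 106 to 284). Without the filter on means, 6 subunit genes were called between the sexes. The median RIN slope was -0.0031 with the well column added and -0.0051 without column 1. The median KO against WT by sex was 0.041 with the well column added and 0.053 in cohort 2, and by cohort it was 0.0096 in males, while 1 subunit gene, Uqcrc2, was called for it without column 1. The cause of these changes was not tested, and smaller fits hold fewer mice. No called subunit gene changed direction. Among uncalled values, the sign turned by more than 1 SE in 64 pairs of gene and setting for KO against WT and 91 for HET against WT. Without counts, the share of error due to depth is unknown.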
